A study of Mus musculus with 198 samples.

Results

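Bone marrow and spleen of the control mice were compared as 12 pairs, each pair being the marrow and the spleen of 1 mouse. The members are the 24 libraries labelled as control and as bone marrow or spleen, of 198 libraries from 9 tissues in the series. The mice were C57BL/6 animals with no engineered allele named in the labels, 6 females and 6 males, and carried the label control in a 17-week antibody study. The other arm of that study received an antibody against PAPP-A, a secreted protease that cleaves insulin-like growth factor (IGF) binding proteins, and 10 mice of that arm with both tissues served here as a repeat. The age of the mice was not given in the sources used here, and neither was what the control mice received beyond the word control. RNA came from whole tissue, so every value is a mixture over all cells of the organ piece, and fewer cells of a type cannot be told apart from less RNA per cell. Each tissue was sampled once per mouse, so the spread between mice holds biological and technical variation together.

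Both organs hold blood cells, but they do different work. Bone marrow is the site where stem cells give rise to granulocytes, monocytes, red cells, platelets and B cell precursors, and neutrophils ripen there through stages that fill azurophil, then specific, then gelatinase granules. The spleen filters blood: its red pulp removes old red cells and recycles their iron, and its white pulp holds follicles of B cells, zones of T cells and the stromal cells that guide both with chemokines. In rodents the spleen also keeps some blood formation of its own through adult life.

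Levels are given as CPM, counts per 1000000 counts of the library size scaled by TMM, the trimmed mean scaling of edgeR, which makes a gene comparable between libraries but not 1 gene with another. Total counts per library ran from 6962844 to 10188509 in marrow and from 6432226 to 11548968 in spleen. Of these, 64.9% to 96.5% in marrow and 54.8% to 97.6% in spleen fell on 9 abundant features. Most of the 9 are ribosomal or overlapping features. The remaining counts ran from 348391 to 2550293 in marrow and from 278665 to 2908950 in spleen. The mean log2 ratio of these remaining counts, marrow over spleen, was 0.43 ± 1.08 (SD, n = 12, exact sign-flip permutation test, two-sided p = 0.207). All 24 libraries matched the sex on their labels.

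Tlx1, a spleen organ factor, was counted in 12 of 12 spleens and in no marrow, and Rag1, of lymphocyte precursors, in 12 of 12 marrows and in 1 of 12 spleens. The bone gene Bglap had a median of 0 CPM in both organs. Several libraries stood apart. The spleen of mouse 45 held 15798 counts of 32 exocrine pancreas genes, 1.07% of its counts outside the abundant features, with at least 10 counts for 28 of the 32. Amy2a3, a pancreatic amylase, had 5016 counts there. The spleen of mouse 3 held 263 such counts, and no single pancreas gene passed 78 counts in any library but that of mouse 45. The marrow of mouse 55 held 14877 counts of 15 skeletal muscle genes, against at most 1000 in any other marrow. No pancreas gene passed the filter on low counts. Of the muscle list, Eno3, a muscle enolase, passed it with a log2 difference of 0.32 ± 0.35 that was not called. The summed CPM of 10 hepatocyte genes stayed between 1.52 and 19.7 in spleens and between 0.123 and 0.778 in marrows. For 10 mesothelium genes, which mark the lining of abdominal organs, the sums were 1.59 to 13.3 in spleens and 0.444 to 2.31 in marrows. The spleens of mice 18 and 20 also stood apart. They had the fewest counts outside the abundant features of any library, 305162 and 278665. In both, the CPM summed over tested members lay below the other 10 spleens for 21 of 40 gene lists and above them for 2. This is stated with each of these lists, and a sum is led by its members with the most counts. Whether depth bears on these sums was not tested.

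Most genes with enough counts differed between the organs, 8390 of 11986 (70%). Of these 11986 genes, 4195 were higher in marrow (35%) and 4195 were higher in spleen (35%), by edgeR's quasi-likelihood test with the mouse as a block and a Benjamini-Hochberg adjusted p under 0.05. Against a null of a change of up to 2-fold (glmTreat), 1056 genes were higher in marrow (8.81%) and 983 were higher in spleen (8.2%). For 1390 genes (11.6%) every marrow library lay above every spleen library, and for 1194 genes (9.96%) every spleen lay above every marrow. The median log2 difference over all genes tested, marrow minus spleen, was -0.01. Scaling by the plain total outside the abundant features moved that median to -0.15 and the counts called to 3430 and 4996. Every log2 difference below is marrow minus spleen, so a positive value means higher in marrow, and "called" means an adjusted p under 0.05 over all genes tested. The counts of called list members below stand beside the 35% of all genes called in each direction.

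Among genes past 2-fold with a mean of at least 5 CPM over the 24 libraries and the same direction in all 12 mice, the 12 largest differences per direction were taken. The limit on the mean leaves out lower genes with larger differences, such as Rag1 and Marco below. The 12 on the marrow side are all genes known from neutrophils, and S100a8 and S100a9, the subunits of calprotectin, led them. S100a8 (ENSMUSG00000056054.9, chr3:90668978-90670035) ranged from 718 to 2804 CPM with a median of 1180 in marrow and from 0 to 8.44 CPM with a median of 2.3 in spleen. Its log2 difference was 8.81 ± 0.42 (SE, adjusted p = 3.33e-12), and its lowest marrow lay far above its highest spleen. The 12 on the spleen side were led by Ccl21a and Cxcl13, chemokines of lymphoid stroma, followed by the matrix genes Smoc2, Coch, Hmcn1 and Tnxb. Smoc2 ranged from 0 to 0.157 CPM with a median of 0 in marrow and from 7.16 to 16.8 CPM with a median of 14.2 in spleen. Hmcn1, a large extracellular protein of basement membranes, differed by -7.62 ± 0.18 (SE, adjusted p = 8.94e-16), with spleens at 3.58 to 23.2 CPM and marrows at 0 to 0.341. Igfbp7, Clu, Mfge8, Enpp2, Dnase1l3 and the immunoglobulin heavy chain Ighg3 completed the spleen group. The tissues overlapped for Ighg3 alone among these 24 genes.

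**Figure D1:**
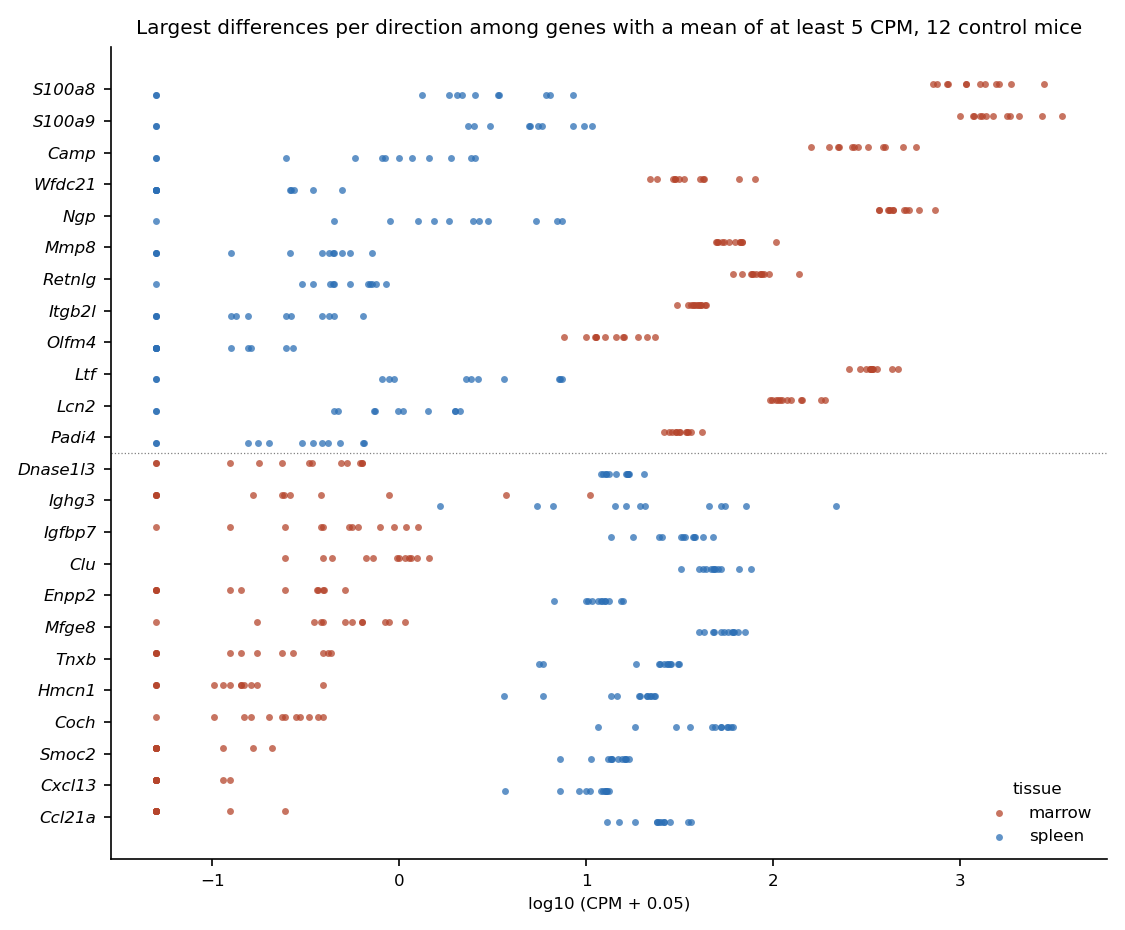
Level of each of the 24 genes with the largest differences among those with a mean of at least 5 CPM, as log10 of CPM plus 0.05, with 1 point per library (marrow in red, spleen in blue, 12 libraries each). Genes above the dotted line were higher in marrow and those below it in spleen, and the clouds are apart for every gene but Ighg3.

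Neutrophil granule genes were higher in marrow. Of 11 tested genes of specific granules, the granules filled at the myelocyte stage, 11 were higher in marrow, all of them past 2-fold, with a median log2 difference of 6.93 against -0.01 for all genes. Camp, the cathelicidin antimicrobial peptide (ENSMUSG00000038357.10, chr9:109847379-109849617), ranged from 159 to 579 CPM with a median of 278 in marrow and from 0 to 2.48 CPM with a median of 0.869 in spleen. The log2 difference of Camp was 8.11 ± 0.34 (SE, adjusted p = 5.83e-13). Ltf, which encodes the iron-binding lactoferrin, ranged from 255 to 468 CPM with a median of 336 in marrow and from 0 to 7.41 CPM with a median of 2.28 in spleen. Lcn2, which binds bacterial siderophores, was at 96.7 to 189 CPM in marrow and at 0 to 2.06 CPM in spleen. Marrow and spleen libraries were separate for all 3 genes. Ngp, Ly6g, Itgb2l, Chil3 and Cd177 differed by 7.59, 7.75, 7.28, 6.76 and 6.61 on the log2 scale. Cebpe, the transcription factor required for the specific granule stage, had a difference of 6.04 ± 0.25 (SE, adjusted p = 5.83e-13).

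Gelatinase granule and late neutrophil genes showed the same direction. All 13 tested members were higher in marrow, 12 of them past 2-fold, with a median of 6.27. Mmp8, the neutrophil collagenase, ranged from 49.5 to 104 CPM with a median of 60.4 in marrow and from 0 to 0.66 CPM with a median of 0.355 in spleen. Mmp9, gelatinase B, differed by 6.07, and Padi4, which citrullinates histones, by 6.78. Csf3r, the receptor for granulocyte colony-stimulating factor, ranged from 92.3 to 155 CPM with a median of 123 in marrow and from 1.09 to 6.83 CPM with a median of 4.37 in spleen. Cxcr2, the receptor that draws ripe neutrophils into blood, differed by 3.30 ± 0.09. Stfa2l1, a stefin, was chosen after its values were seen: it had 697 counts over all marrows and 2 over all spleens, a ratio of 322 after scaling (95% exact counting interval 88.7 to 2662).

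Azurophil granule genes, which are made earliest, at the promyelocyte stage, showed smaller differences in the same direction. Of 10 tested, 8 were higher in marrow and 2 in spleen, with a median of 4.85. Elane, neutrophil elastase (ENSMUSG00000020125.6, chr10:79886247-79888215), ranged from 9.68 to 19.3 CPM with a median of 15.4 in marrow and from 0 to 0.858 CPM with a median of 0.223 in spleen. Mpo, myeloperoxidase (ENSMUSG00000009350.13, chr11:87793581-87804413), ranged from 39.9 to 89.5 CPM with a median of 58.8 in marrow and from 0.376 to 4.72 CPM with a median of 1.68 in spleen. The log2 differences were 5.42 ± 0.24 (SE, adjusted p = 1.30e-12) for Elane and 4.92 ± 0.26 (SE, adjusted p = 1.03e-11) for Mpo. Ctsg, Fcnb and Ms4a3 differed by 5.33, 5.33 and 6.00. The members that were higher in spleen were Nkg7 (-0.47) and Cst7 (-0.69), which cytotoxic lymphocytes also express. The call of Nkg7 was lost without mice 18 and 20 (adjusted p = 0.051) and without mice 45 and 55 (0.0521). Males alone (-0.27, adjusted p = 0.34) and the fit with no low count filter (0.0533) also lost it. Spleens were not empty of neutrophil transcripts: S100a8 was counted in 10 of 12 spleens, with none in mice 18 and 20, and both of those spleens were below the other 10 for the specific and gelatinase lists.

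Promoter sequence is shown for granule genes because the factors that drive this programme, PU.1 and the C/EBP family, bind short motifs near gene starts. The windows below hold up to 100 bases, 5′ to 3′ on the strand of the gene, from the 250 bases before the RefSeq start (GRCm38.p6) and ending before any earlier annotated start, and the capitals mark the motif, GAGGAAGT or its reverse complement for PU.1.
Elane, chr10:79886147-79886246, plus strand: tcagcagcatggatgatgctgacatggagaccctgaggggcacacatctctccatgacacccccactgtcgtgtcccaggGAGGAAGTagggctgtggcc
Mpo, chr11:87793534-87793580, plus strand: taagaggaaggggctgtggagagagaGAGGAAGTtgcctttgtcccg
The PU.1 letters were present in 3 of 11 azurophil genes with a RefSeq promoter (these and Prtn3) and in 2.44% of 32851 promoters searched. Prtn3, proteinase 3, was chosen for this match, with a log2 difference of 4.77.

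For the later granules the C/EBP half-palindrome TTGCNNAA was searched on both strands, and its match stands in capitals in the next windows.
Ltf, chr9:111019171-111019270, plus strand: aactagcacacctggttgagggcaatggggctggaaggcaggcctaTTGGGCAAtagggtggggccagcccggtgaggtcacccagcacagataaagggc
Ngp, chr9:110419624-110419723, plus strand: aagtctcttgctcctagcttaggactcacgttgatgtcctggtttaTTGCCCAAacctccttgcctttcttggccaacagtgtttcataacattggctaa
Mmp8, chr9:7558329-7558428, plus strand: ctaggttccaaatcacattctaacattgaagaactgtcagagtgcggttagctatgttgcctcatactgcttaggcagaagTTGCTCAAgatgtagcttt
These letters were found in 4 of 10 specific granule genes (Lcn2, Ltf, Ly6g and Ngp), in 3 of 12 gelatinase genes (Mmp8, Retnlg and S100a9) and in 9.56% of all promoters. Every such match also fits the looser pattern TTNNGNAA on 1 strand or the other, which 7 of 10 specific granule genes and 36.85% of all promoters held. The motifs were chosen after the expression values were known, 8 in all, and a match describes letters, not binding.

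Other myeloid cells divided between the organs. Of 14 monocyte genes, 6 were higher in marrow and 4 in spleen, near the 35% called in each direction over all genes tested. Ly6c2, Ccr2 and F13a1, which mark the classical monocyte, were higher in marrow by 2.47, 3.24 and 4.32. Ccr2, the chemokine receptor that monocytes need to leave marrow, ranged from 28.2 to 50.4 CPM with a median of 38.4 in marrow and from 2.17 to 5.95 CPM with a median of 3.78 in spleen. Csf1r, the receptor for macrophage colony-stimulating factor, was higher in spleen (-1.62), and so was Irf8 (-0.999), a factor for monocytes and dendritic cells. Marrow and spleen did not overlap for Ccr2. Over the monocyte list the spleens of mice 18 and 20 summed to 158 and 151 CPM against 175 to 205 in the other 10. Of 7 tested genes of eosinophils, basophils and mast cells, 6 were higher in marrow. Hdc, which makes histamine, ranged from 24.8 to 33.5 CPM with a median of 27.8 in marrow and from 0 to 1.09 CPM with a median of 0.588 in spleen. Prss34, a basophil protease, differed by 5.16 ± 0.22 (SE, adjusted p = 8.81e-13). Prg2, the eosinophil major basic protein, differed by 2.12, while the interleukin-5 receptor Il5ra, which B cells also express, was higher in spleen (-1.35).

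**Figure D2:**
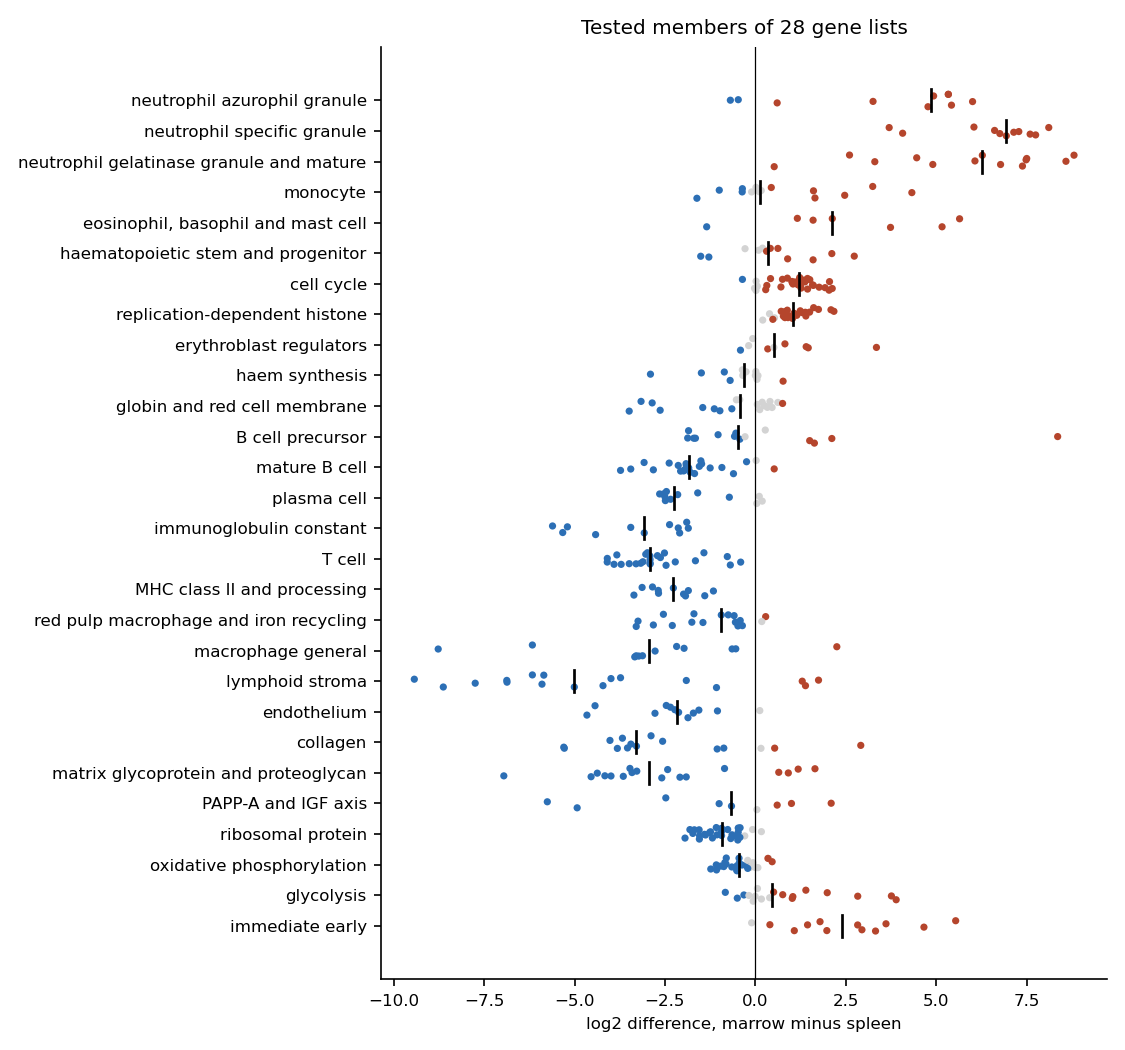
Log2 difference, marrow minus spleen, of every tested member of 28 gene lists, with 1 point per gene, red where called higher in marrow, blue where called higher in spleen and grey where not called, and a black bar at the median of the list. Neutrophil and immediate early lists lie to the right of 0, lymphocyte and stroma lists to the left, and the erythroid and haem lists straddle it.

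Stem and progenitor genes differed less. Of 12 tested, 7 were higher in marrow and 2 in spleen. Myb, the factor that maintains progenitors, ranged from 21.4 to 30.5 CPM with a median of 24.4 in marrow and from 1.59 to 6.65 CPM with a median of 3.65 in spleen. Its difference was 2.73 ± 0.11 (SE, adjusted p = 5.08e-13), and all 12 mice were higher in marrow. Kit, the receptor of stem cell factor, ranged from 3.3 to 6.1 CPM with a median of 4.51 in marrow and from 1.99 to 5.14 CPM with a median of 3.9 in spleen. The tissues overlapped for Kit, with a difference of 0.31 ± 0.11 (SE, adjusted p = 0.0225) and 10 of 12 mice higher in marrow. That call was lost without mouse 11 (0.24, adjusted p = 0.0659) and in the fit with no mouse block (adjusted p = 0.0843), also with sex as a covariate (0.0866). It was lost as well with no TMM scaling (adjusted p = 0.299), in females alone (0.1495) and in males alone (0.0922). Erg and Gata2 were higher in marrow by 2.11 and 1.59, and Cd34 by 0.41. Flt3 (-1.51) and Slamf1 (-1.29), which dendritic cells and activated lymphocytes also express, were higher in spleen. The 8 members below the filter on low counts included Hoxa9, with 28 counts over all marrows and 3 over all spleens (ratio 8.62, 95% exact counting interval 2.66 to 44.3). Hoxa9 was chosen after its values were seen.

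Genes of dividing cells were higher in marrow. Of 32 cell cycle genes, 27 were higher in marrow and 1 in spleen, with a median of 1.20. Mki67, the Ki-67 proliferation antigen, ranged from 108 to 145 CPM with a median of 120.4 in marrow and from 36.4 to 131 CPM with a median of 46.2 in spleen. Its difference was 1.26 ± 0.15 (SE, adjusted p = 6.85e-07). The overlap came from the spleen of mouse 22, at 131 CPM, which also had the highest summed cell cycle level of any spleen, 379.7 CPM against a median of 172 over spleens and 382 over marrows. Bub1 and Cenpe, which act at the mitotic spindle, differed by 2.12 and 2.05, and the S phase cyclin Ccne2 by 2.04. Subunits of the replication helicase differed little and in both directions: Mcm2 and Mcm5 were higher in marrow (0.28 and 0.32), Mcm3 was higher in spleen (-0.36), and Mcm4, Mcm6 and Mcm7 were not called. Mcm2 and Mcm5 were chosen after their values were seen. In the 6 females alone the calls of Mcm2, Mcm3 and Mcm5 were lost (adjusted p = 0.384, 0.0504 and 0.145). Those of Mcm2 and Mcm5 were also lost with no TMM scaling (adjusted p = 0.228 and 0.141), and that of Mcm2 without mice 18 and 20 (0.0673). Replication-dependent histones, whose transcripts lack a poly(A) tail and are kept in total RNA libraries, were higher in marrow for 22 of 25 members, and none was called higher in spleen. Hist1h1a, a linker histone, ranged from 15.7 to 52.2 CPM with a median of 31.3 in marrow and from 1.59 to 16.7 CPM with a median of 5.74 in spleen. Histone genes are near-identical copies, so counts may be divided among them. The marrow and spleen ranges of Hist1h1a overlapped.

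Globins and some red cell membrane genes were higher in spleen. Of 19 globin and membrane genes, 8 were higher in spleen, 1 was higher in marrow and 10 were not called. Hbb-bs, an adult beta globin (ENSMUSG00000052305.6, chr7:103826534-103828096), ranged from 21.1 to 89.8 CPM with a median of 53.6 in marrow and from 29.4 to 986 CPM with a median of 475 in spleen. The difference was -2.85 ± 0.36 (SE, adjusted p = 1.37e-06), with 11 of 12 mice higher in spleen, and the exception was mouse 20. Without mice 18 and 20 the difference was -3.28. Hba-a1 and Hba-a2, the alpha globins, differed by -3.16 and -3.49, and the adult globins are near-identical pairs. Slc4a1, the band 3 anion exchanger, ranged from 2.52 to 12.1 CPM with a median of 5.33 in marrow and from 0.398 to 131 CPM with a median of 12.1 in spleen. The spleen range of Slc4a1 enclosed the marrow range, and its difference was -1.46 ± 0.38 (SE, adjusted p = 0.00247). The call was lost in the 6 females alone (-0.85, adjusted p = 0.224). Globin levels varied widely between spleens: the summed list ran from 85.5 CPM in mouse 20 and 325 in mouse 18 to 3060 in mouse 22, while marrows ran from 105 to 298.

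Haem synthesis was less divided. Of 12 tested enzymes and transporters, 4 were higher in spleen and 1 in marrow. Alas2, the erythroid first enzyme, ranged from 1.62 to 4.88 CPM with a median of 2.09 in marrow and from 1.19 to 44.8 CPM with a median of 19.4 in spleen. Its difference was -2.90 ± 0.24 (SE, adjusted p = 7.21e-09), with overlapping tissues. Fech, which inserts iron as the last step, differed by -1.49. The spleens of mice 18 and 20 were lowest for this list too, at 42.0 and 38.6 summed CPM against 51.3 to 246 in the other 10. Among regulators of erythroblasts, 5 of 9 were higher in marrow and 1 in spleen. Nfe2, a globin gene activator also used by megakaryocytes, had medians of 14.4 CPM in marrow and 0.96 in spleen, with no marrow below 13.4 and no spleen above 6.87. Tfrc, the transferrin receptor, ranged from 13.5 to 27.6 CPM with a median of 19.1 in marrow and from 5.3 to 44.4 CPM with a median of 9.55 in spleen. It was higher in marrow by 0.82 ± 0.21 (SE, adjusted p = 0.00193). The spleen of mouse 22 had the highest Tfrc of all spleens at 44.4 CPM, and the highest Slc4a1 at 131 CPM. Gata1, the master erythroid factor, was below the filter on low counts, with medians of 0.755 CPM in marrow and 0.474 in spleen and its highest value, 4.29 CPM, in the spleen of mouse 22. Megakaryocyte genes differed little, with 4 of 9 higher in marrow and 1 in spleen, against 35% in each direction over all genes tested. Pf4, platelet factor 4, differed by 0.62 ± 0.21, Gp1ba by 1.36 and Tubb1, the platelet tubulin, by -0.77. The call of Pf4 was lost with no TMM scaling (adjusted p = 0.056), in the 6 females alone (0.202) and without mice 45 and 55 (0.0741). Over the list, mice 18 and 20 had spleen sums of 22.5 and 19.5 CPM against 34.7 to 58.1 in the other 10 and 35.2 to 72.7 in marrows.

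**Figure D3:**
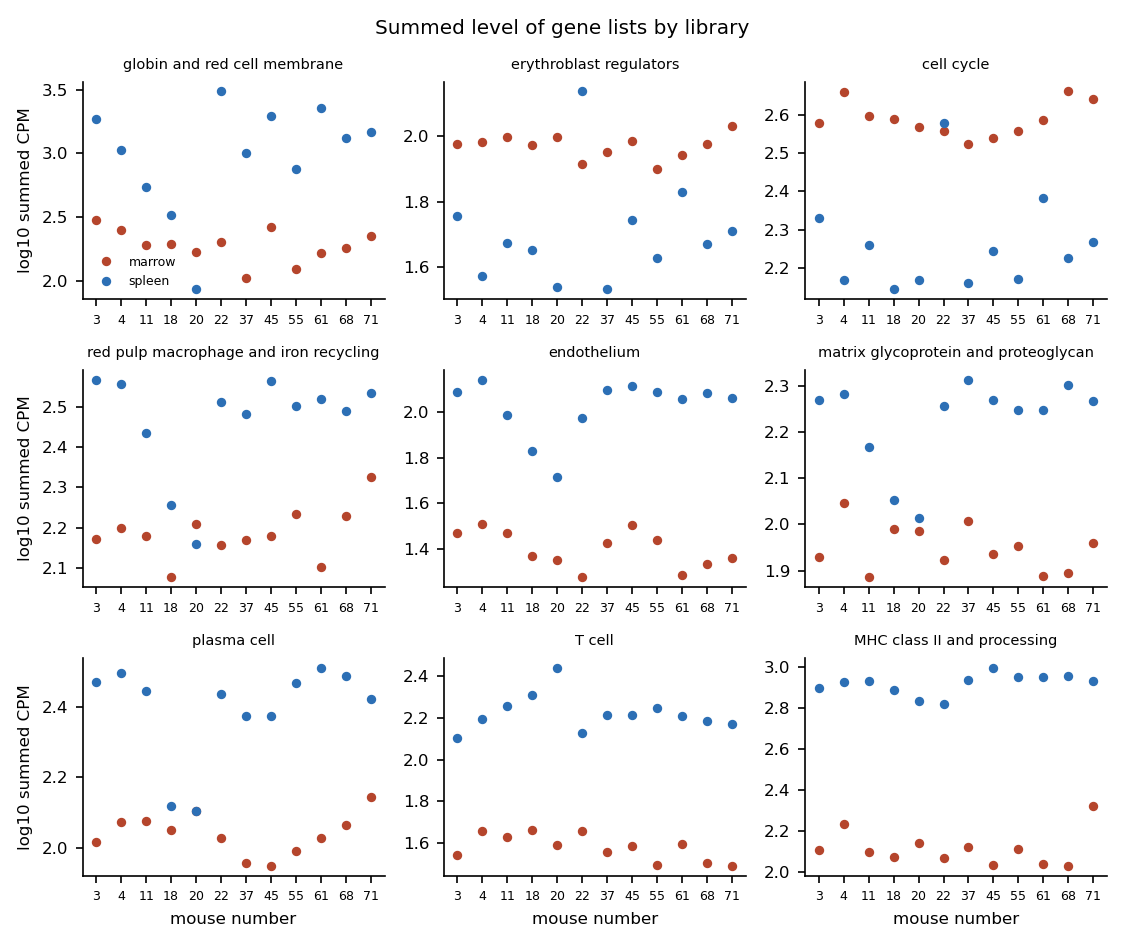
Summed CPM, on a log10 axis, of 9 gene lists in each library, with mice named by number on the horizontal axis, marrow in red and spleen in blue. The spleens of mice 18 and 20 are the lowest spleens for globin, red pulp, endothelium, matrix and plasma cell genes and the highest for T cell genes, and the spleen of mouse 22 is the highest for the erythroblast and cell cycle lists.

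B cell genes separated by stage. Rag1, the recombinase that cuts antigen receptor genes (ENSMUSG00000061311.6, chr2:101638282-101649501), ranged from 3.31 to 10.4 CPM with a median of 8.24 in marrow and from 0 to 0.0752 CPM with a median of 0 in spleen. It had 887 counts over all marrows and 1 over all spleens, a ratio of 819 (95% exact counting interval 147 to 32380). Rag1 was present in 12 of 12 marrows and in 1 of 12 spleens. The surrogate light chain genes, which pair with the heavy chain before a light chain exists, were below the filter on low counts: Igll1 had 74 counts in marrow and 1 in spleen, and Vpreb1 had 30 and 2. In the fit with no low count filter both were called higher in marrow (edgeR's quasi-likelihood test, adjusted p = 1.27e-08 and 0.00326). Igll1 was chosen after its values were seen. Dntt, the enzyme that adds bases at the joins, had medians of 0.638 CPM in marrow and 0.197 in spleen. The precursor list as a whole was mixed, with 4 of 14 tested members higher in marrow and 8 in spleen. The latter held Pax5 (-1.71), Cd79a (-1.87) and Cd79b (-1.85), which stay on in mature B cells. In the fit with no low count filter, 9 precursor members were called higher in marrow. Across the alternative fits, 7 to 8 were called higher in spleen.

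Mature B cell genes were higher in spleen. Of 23 tested, 21 were higher in spleen and 1 in marrow, with a median of -1.84. Cr2, the complement receptor of follicular and marginal zone B cells and follicular dendritic cells, ranged from 3.07 to 6.45 CPM with a median of 4.84 in marrow and from 40.1 to 82.6 CPM with a median of 65.7 in spleen. The spleen libraries were all above the marrow libraries for Cr2, and its difference was -3.73 ± 0.08 (SE, adjusted p = 3.14e-16). Fcmr, the receptor for IgM, and Fcer2a, the low-affinity IgE receptor, differed by -2.38 and -1.91. Over the list the spleens of mice 18 and 20 summed to 1340 and 1022 CPM against 1592 to 2926 in the other 10 spleens and 332 to 479 in marrows. Much of this sum is Ighm, at 391 to 2178 CPM in spleens, so it does not show whether the other members were low there. Over 23 members the highest spleen was a median of 1.71 times the lowest, and 1.66 times without mice 18 and 20. Of 13 marginal zone genes, 10 were higher in spleen, led by the sphingosine 1-phosphate receptor S1pr3 (-3.43), Dtx1, a Notch target (-3.29), and Cd36 (-3.23), which red pulp macrophages and endothelium also express. Cd9 (1.21) and Plac8 (0.83), genes that myeloid cells also use, were higher in marrow. Germinal centre genes were few and mixed, with 3 of 6 higher in marrow, among them Bcl6 (0.94) and Mki67, and Gcsam higher in spleen (-1.12).

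Plasma cell and antibody genes were also higher in spleen. Of 12 plasma cell genes, 9 were higher in spleen and none in marrow, with a median of -2.25. Sdc1, the plasma cell surface marker syndecan-1, ranged from 0.114 to 1.36 CPM with a median of 0.766 in marrow and from 1.09 to 6.94 CPM with a median of 4.22 in spleen. The tissues overlapped for Sdc1, and its difference was -2.65 ± 0.27 (SE, adjusted p = 9.97e-08). Derl3 and Txndc5, which serve protein export from the endoplasmic reticulum, differed by -2.54 and -2.46. All 11 tested constant region genes were higher in spleen and past 2-fold, with a median of -3.07. Ighm, the IgM heavy chain, ranged from 73.9 to 159.6 CPM with a median of 112 in marrow and from 391 to 2178 CPM with a median of 1364 in spleen. The lowest spleens for the plasma cell and constant region lists were those of mice 18 and 20, at 131 and 127 summed CPM against 236 to 325 for the plasma list.

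The makeup of antibody transcripts differed as well, measured within each library as a share of heavy chain counts. These counts numbered 389 to 2636 in marrow and 1452 to 44887 in spleen. Ighd, the IgD chain of naive B cells, held 9.14% ± 3.07 of them in marrow (SD, n = 12) and 3.71% ± 1.95 in spleen (SD, n = 12), and was the higher in marrow in 11 of 12 mice. The 4 IgG chains together held 6.42% ± 3.81 in marrow and 16.4% ± 5.96 in spleen, and were the higher in spleen in 12 of 12 mice. Igha, the chain of mucosal IgA, held 2.79% ± 1.55 in marrow and 1.26% ± 0.443 in spleen, and was the higher in marrow in 11 of 12 mice. Ighm held 81.6% ± 4.52 and 78.7% ± 6.34. No test was run on these shares, since heavy chain genes share sequence and the shares depend on each other.

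T cell genes were higher in spleen without exception among those tested: 25 of 25, 22 of them past 2-fold, with a median of -2.91. Cd3e, a signalling chain of the T cell receptor, ranged from 0 to 1.25 CPM with a median of 0.599 in marrow and from 3.37 to 12.7 CPM with a median of 4.58 in spleen. Its difference was -3.17 ± 0.24 (SE, adjusted p = 2.21e-09). Cd4, the co-receptor of helper cells, differed by -4.09, Trbc2, a receptor constant region, by -3.91, and Tcf7, a factor of naive T cells, by -3.71. Cd8b1, the co-receptor of cytotoxic T cells, was chosen after its values were seen and differed by -3.83. Here the spleens of mice 18 and 20 were the highest, at 204 and 276 summed CPM against 126 to 181 in the other 10, and all 12 spleens stood above all 12 marrows (30.9 to 45.7). Of 8 genes of natural killer and cytotoxic cells, 7 were higher in spleen. Il2rb, a receptor chain for interleukins 2 and 15, differed by -2.25 and Ccl5, a chemokine of effector cells, by -2.21. Ncr1, the receptor NKp46, was below the filter on low counts.

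**Figure D4:**
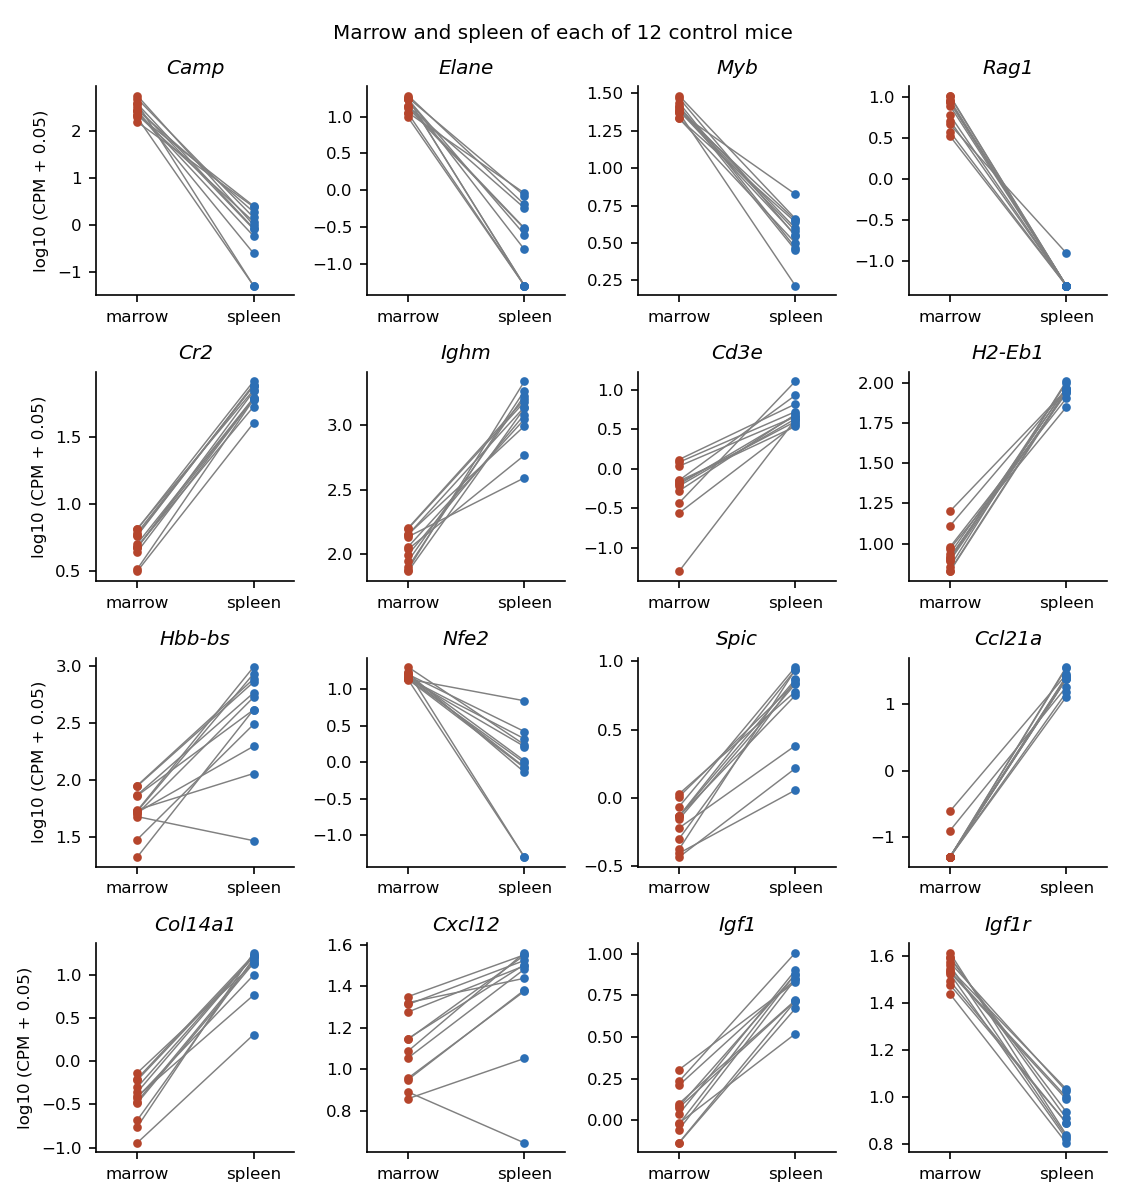
Level of 16 genes in the marrow and the spleen of each of 12 control mice, as log10 of CPM plus 0.05, with a grey line joining the tissues of 1 mouse. Lines run downward for Camp, Elane, Myb, Rag1, Nfe2 and Igf1r and upward for Cr2, Ighm, Cd3e, H2-Eb1, Spic, Ccl21a, Col14a1 and Igf1, while Hbb-bs and Cxcl12 each have an exception, mouse 20.

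Antigen presentation genes were higher in spleen. All 11 MHC class II genes and partners were higher in spleen, 10 of them past 2-fold, with a median of -2.27. H2-Eb1, a class II beta chain, ranged from 6.65 to 15.8 CPM with a median of 8.12 in marrow and from 70.8 to 103 CPM with a median of 90.9 in spleen. Its difference was -3.36 ± 0.12 (SE, adjusted p = 7.00e-14). Cd74, the invariant chain that guards the peptide groove, differed by -3.13, and Ciita, the factor that switches the whole set on, by -2.27. Summed over the list, spleens held 658 to 989.7 CPM and marrows 107 to 209, and the spleens of mice 18 and 20 were within the range of the others.

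The class II promoters are shown because Ciita acts through a shared block of elements, one of which, the Y box, holds the reverse complement of a CCAAT motif. The letters CTGATTGG, searched on both strands, are in capitals in these windows, drawn as above.
H2-Aa, chr17:34287824-34287923, minus strand: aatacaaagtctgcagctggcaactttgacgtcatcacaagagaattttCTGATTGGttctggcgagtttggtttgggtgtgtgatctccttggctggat
H2-Eb1, chr17:34305759-34305858, plus strand: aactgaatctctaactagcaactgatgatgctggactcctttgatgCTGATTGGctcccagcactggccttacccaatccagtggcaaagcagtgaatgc
The Y box letters were present in 3 of 8 members with a RefSeq promoter (both of these and H2-Oa) and in 3.83% of all promoters. The neighbouring X box, searched by its core pattern on both strands, was found in 2 of the 8, H2-Eb1 and H2-DMb1, and in 0.682% of all promoters. H2-Aa, a class II alpha chain, was chosen for its sequence and differed by -2.69.

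Dendritic cell genes followed with exceptions. Of 13 tested, 10 were higher in spleen and 3 in marrow. In mice 18 and 20 the spleen sums were 178 and 163.5 CPM against 179.6 to 214 in the other 10 and 104 to 144 in marrows. Dnase1l3, a secreted nuclease of dendritic cells and macrophages, ranged from 0 to 0.58 CPM with a median of 0.284 in marrow and from 11.9 to 20.4 CPM with a median of 15.3 in spleen. Itgax, the integrin CD11c, and Zbtb46, a factor of conventional dendritic cells, differed by -1.82 and -2.01. Siglech, a marker of plasmacytoid dendritic cells, was higher in marrow by 0.66 ± 0.15, and Cd24a, a surface protein of many immature blood cells, by 0.41 ± 0.14. The call of Cd24a was lost without mice 18 and 20 (0.33, adjusted p = 0.069) and in males alone (0.29, adjusted p = 0.109). It was lost as well with no TMM scaling (adjusted p = 0.094) and in the fit with no mouse block (0.0539).

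Macrophage genes marked the red pulp. Of 17 genes of red pulp macrophages and iron recycling, 15 were higher in spleen and 1 in marrow, with a median of -0.94. Spic, the factor that red pulp macrophages depend on, ranged from 0.317 to 1.02 CPM with a median of 0.663 in marrow and from 1.09 to 9.03 CPM with a median of 6.82 in spleen. Its difference was -3.25 ± 0.18 (SE, adjusted p = 2.32e-11), and the 3 lowest spleens, at 1.09, 1.59 and 2.36 CPM, were those of mice 18, 20 and 11. Summed over the list, the spleens of mice 18 and 20 held 181 and 144 CPM against 273 to 369 in the other 10. Marrows held 119 to 212, so both spleens were within the marrow range, and in mouse 20 the marrow, at 162 CPM, was above the spleen. Hmox1, which opens the haem ring, ranged from 2.05 to 4.66 CPM with a median of 3.83 in marrow and from 6.37 to 24.9 CPM with a median of 19 in spleen. Slc40a1, the iron exporter ferroportin, ranged from 20.1 to 30.8 CPM with a median of 25.6 in marrow and from 8.36 to 64.7 CPM with a median of 45.5 in spleen. Its smaller difference of -0.55 ± 0.19 (SE, adjusted p = 0.0156) came with overlapping tissues, and its call was lost without mice 3 and 45 (adjusted p = 0.0732). The call of Slc40a1 was also lost without mice 45 and 55 (adjusted p = 0.0651) and in the 6 females alone (-0.36, adjusted p = 0.372). Cd5l, Siglec1 and Vcam1, all markers of resident macrophages, differed by -3.29, -2.82 and -2.54. Il18bp was the member that was higher in marrow (0.28), and its call was lost for 6 of the 12 mice when each was left out (adjusted p = 0.0529 to 0.0964). Other fits that lost it included females alone (adjusted p = 0.158), males alone (0.129) and no TMM scaling (0.300).

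General macrophage genes had larger differences. Of 12 tested, 11 were higher in spleen, with a median of -2.95. Marco, a scavenger receptor of marginal zone macrophages, had 1 count over all marrows and 1200 over all spleens, a ratio of 1300 (95% exact counting interval 233 to 51380). Timd4, which binds phosphatidylserine on dying cells, differed by -6.17 ± 0.30 (SE, adjusted p = 3.14e-12). Axl and Mertk, receptors for the same task, differed by -3.12 and -3.33, and C1qc, a complement subunit, by -3.22. Msr1, another scavenger receptor, was higher in marrow by 2.25 ± 0.23 (SE, adjusted p = 8.63e-08). The spleens of mice 18 and 20 were again lowest, with summed levels of 67.4 and 49.3 CPM against 138 to 202 in the other 10 and 27.8 to 40.3 in marrows. Cd209b, the marginal zone lectin SIGN-R1, was chosen after its values were seen: it had no count in any marrow and 160 over 12 spleens, at least 57.8-fold higher against a floor of 3 counts over the group.

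Genes of the stromal cells of the white pulp were higher in spleen. Of 17 tested lymphoid stroma genes, 14 were higher in spleen and 3 in marrow, with a median of -5.01. Ccl21a, the T zone chemokine (ENSMUSG00000094686.1, chr4:42772860-42773993), ranged from 0 to 0.195 CPM with a median of 0 in marrow and from 12.9 to 36.2 CPM with a median of 24.6 in spleen. It had 3 counts over all marrows and 2534 over all spleens, a ratio of 915 (95% exact counting interval 313 to 4439), and near-identical Ccl21 copies share its reads. Cxcl13, the chemokine of B cell follicles (ENSMUSG00000023078.6, chr5:95956951-95961068), had 2 and 1250 counts, a ratio of 677 (95% exact counting interval 187 to 5596). Mfge8, Clu and Enpp2, which follicular dendritic and reticular cells make, differed by -6.87, -5.85 and -5.90. The exceptions that were higher in marrow were Tnfsf13b, the B cell survival factor BAFF (1.74), Bst1 (1.38) and Ltbr, the lymphotoxin beta receptor, all of which myeloid cells also express. Madcam1, the adhesion molecule of the marginal sinus, was chosen after its values were seen: it had no count in any marrow and 132 over 12 spleens.

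Vessels and matrix showed the same direction. Of 12 endothelial genes, 11 were higher in spleen and none in marrow, with a median of -2.17. Plvap, a diaphragm protein of fenestrated vessels, ranged from 0 to 0.736 CPM with a median of 0.37 in marrow and from 3.58 to 12.3 CPM with a median of 9.63 in spleen. Stab2, the hyaluronan scavenger of sinus endothelium, differed by -4.43 ± 0.17 (SE, adjusted p = 1.26e-13). Cdh5 and Kdr, a junction cadherin and a receptor for vascular endothelial growth factor, differed by -2.46 and -2.78. Of 11 smooth muscle and pericyte genes, 9 were higher in spleen, whose capsule and trabeculae hold contractile cells. Myh11, smooth muscle myosin, ranged from 0 to 0.77 CPM with a median of 0.298 in marrow and from 5.17 to 12.5 CPM with a median of 9.06 in spleen. Acta2 and Tagln differed by -2.94 and -2.45, and Smtn, another contractile protein, was higher in marrow by 0.53, a call lost in the 6 males alone (0.24, adjusted p = 0.291) and with no TMM scaling (adjusted p = 0.0557). For the endothelial list the spleens of mice 18 and 20 summed to 67.8 and 52.1 CPM against 94.2 to 139 in the other 10, and for the smooth muscle list to 40.94 and 40.98 against 50.5 to 77.1.

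Among collagens, 12 of 15 were higher in spleen and 2 in marrow, with a median of -3.29. Col14a1, which binds fibrils, ranged from 0.0634 to 0.683 CPM with a median of 0.336 in marrow and from 1.99 to 18.1 CPM with a median of 15 in spleen. Col3a1, the fibril collagen of reticular fibres, differed by -5.28 ± 0.22 (SE, adjusted p = 4.78e-13), and Col4a1, of basement membranes, by -4.02. Col1a1, the main collagen of bone, ranged from 2.62 to 8.59 CPM with a median of 4.28 in marrow and from 5.47 to 18.7 CPM with a median of 10.6 in spleen. It was higher in spleen by a log2 difference of -1.06 ± 0.18, with overlapping tissues. Col5a3 was higher in marrow (2.91 ± 0.22 (SE, adjusted p = 1.28e-09)). Of 18 other matrix genes, 14 were higher in spleen and 4 in marrow. Tnxb, a tenascin, differed by -6.95, Sparcl1 by -4.37 and the proteoglycan Bgn by -3.99. Fn1, fibronectin, was higher in marrow by 1.65 ± 0.09 (SE, adjusted p = 2.45e-11). The spleens of mice 18 and 20 summed to 71.7 and 78.4 CPM for collagens against 93.4 to 121 in the other 10, and to 113 and 103.5 against 147 to 206 for the other matrix genes, all above the median marrow.

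Genes used to mark marrow stroma were mostly higher in spleen. Of 11 tested, 7 were higher in spleen and 3 in marrow. With no low count filter, 6 members were called higher in marrow, and 7 to 10 were called higher in spleen across the alternative fits. Cxcl12, the chemokine that holds stem cells and B cell precursors in marrow, ranged from 7.18 to 22.3 CPM with a median of 13 in marrow and from 4.38 to 36.3 CPM with a median of 30.8 in spleen. Its difference was -0.95 ± 0.14 (SE, adjusted p = 1.19e-05), with 11 of 12 mice higher in spleen. Pdgfra, Pdgfrb and Kitl, which encodes stem cell factor, differed by -3.68, -2.98 and -2.19, and the leptin receptor Lepr by -1.10. Igfbp5 was higher in marrow by 0.60 ± 0.14. Over the list the spleens of mice 18 and 20 summed to 77.5 and 52.9 CPM against 101 to 154 in the other 10 and 37.1 to 68.5 in marrows. Of 20 genes of osteoblasts, osteocytes and bone matrix, 4 passed the filter on low counts, of which 3 were higher in spleen (Col1a1, Col1a2 and Sparc, which other stromal cells also make) and 1 in marrow, with a median of -2.23. Summed over the 4 that passed, spleens held 34.7 to 51.7 CPM and marrows 12.1 to 20.9. Over all 20 members the sums were 38.2 to 54.5 CPM in spleens and 18.45 to 31.6 in marrows. The other 16 were below the filter, among them Bglap, osteocalcin, with medians of 0 CPM in marrow and 0 in spleen. In the fit with no low count filter, 8 members of the list were called higher in marrow. Across the alternative fits, 3 to 4 were called higher in spleen. Ibsp, bone sialoprotein, was chosen after its values were seen: it had 153 counts over 12 marrows and none in any spleen, at least 47.1-fold higher in marrow against the floor of 3 counts. Runx2, the osteoblast factor that is also used by immune cells, was the tested member higher in marrow (2.28 ± 0.15 (SE, adjusted p = 3.93e-10)). Acp5, an acid phosphatase of osteoclasts and of macrophages, was higher in spleen (-2.55).

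Some factors that set organ identity in the embryo were counted in spleen and were absent or nearly absent from the marrow counts. Tlx1, without which mice form no spleen (ENSMUSG00000025215.10, chr19:45150680-45156943), had no count in any marrow and 165 over 12 of 12 spleens, at least 59.6-fold higher. Nkx2-3, which patterns spleen vessels, had 2 counts in marrow and 99 in spleen, a ratio of 53.6 (95% exact counting interval 14.5 to 449). Tcf21 and Nkx2-5, chosen after their values were seen, had no count in marrow and 226 and 52 in spleen. Of 2 members that passed the filter on low counts, 1 was higher in marrow and 1 in spleen, the latter Nr2f2, a venous and stromal factor (-4.53). Among 35 tested factors of blood lineages, 14 were higher in marrow and 17 in spleen, against 35% in each direction over all genes tested. For this list the spleens of mice 18 and 20, at 517 and 514 summed CPM, were above the other 10 (444.1 to 512). Cebpe and Myb led the marrow side, and Tcf7, Bcl11b (-3.49) and Spic led the spleen side. Spi1, which encodes PU.1, was chosen for its motif and was higher in marrow by 1.495 ± 0.11.

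Chemokines and their receptors can be read side by side, with pairs that were chosen after their values were seen unless the naming rule took them. Ccl21a and Ccl19, the ligands of Ccr7, and Ccr7 itself were all higher in spleen, with Ccl19 at -6.17 and Ccr7 at -2.92. Cxcl13 and its receptor Cxcr5 (-3.08) were also both higher in spleen. For Cxcl12 the sides differed: the ligand was higher in spleen, as given above, and its receptor Cxcr4 was higher in marrow (1.02). Kitl was also higher in spleen and its receptor Kit in marrow, but Kit had overlapping tissues and a call lost in several alternatives, as given above. BAFF, Tnfsf13b, was higher in marrow, and its receptors Tnfrsf13c (-1.98) and Tnfrsf13b (-1.80) were higher in spleen. Ccr1 (5.11) and Ccl6 (3.97), of myeloid cells, were higher in marrow. Over the chemokine list 8 of 20 were higher in marrow and 11 in spleen. Over the cytokine list 11 of 25 were higher in marrow, 6 of them past 2-fold, and 12 in spleen, 9 of them past 2-fold, with a median of -0.21. For all genes tested, the share called was 35% in each direction. On the marrow side were Il1r2, the interleukin-1 decoy receptor, at 4.79 and Tnf at 2.35, and on the spleen side the BAFF receptors above.

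The IGF axis, on which PAPP-A acts, was divided. Of 9 tested members, 3 were higher in marrow and 5 in spleen, against 35% in each direction over all genes tested. Igf1, the ligand, ranged from 0.681 to 1.96 CPM with a median of 1.09 in marrow and from 3.26 to 10.1 CPM with a median of 6.87 in spleen. Its difference was -2.48 ± 0.14 (SE, adjusted p = 1.86e-11). Igf1r, its receptor (ENSMUSG00000005533.10, chr7:67952827-68233668), ranged from 27.4 to 40.9 CPM with a median of 34.6 in marrow and from 6.32 to 10.7 CPM with a median of 7.88 in spleen. The receptor was higher in marrow by 2.09 ± 0.09 (SE, adjusted p = 3.89e-13). Neither gene had overlapping tissues, and the insulin receptor Insr was higher in marrow by 0.996 ± 0.08. Igf2r, which binds and removes IGF2, was chosen after its values were seen and was higher in spleen (-0.66). Over the list the spleens of mice 18 and 20 summed to 89.9 and 80.8 CPM against 93.1 to 127 in the other 10 and 84.2 to 103 in marrows. Of the binding proteins, Igfbp3 (-4.93), Igfbp7 (-5.75) and Igfbp4 (-1.003), a PAPP-A substrate, were higher in spleen. Igfbp4 ranged from 3.75 to 8.57 CPM with a median of 7 in marrow and from 10.8 to 16.5 CPM with a median of 14.4 in spleen. Igfbp5, another substrate, ranged from 3.07 to 12.8 CPM with a median of 7.11 in marrow and from 2.77 to 7.08 CPM with a median of 5.11 in spleen. Its call was lost in the 6 females alone (0.24, adjusted p = 0.286), while the 6 males gave 0.92. Pappa itself was below the filter on low counts, with 0.317 to 1.59 CPM in marrow and 0.367 to 1.29 in spleen. Stc2, stanniocalcin 2, an inhibitor of PAPP-A, was chosen after its values were seen and had 1 count over all marrows and 152 over 12 spleens (ratio 165, 95% exact counting interval 29.1 to 6545).

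Genes of general cell work moved too. Of 29 ribosomal protein genes, 26 were higher in spleen and none in marrow, with a median of -0.94. Rps4x ranged from 14.1 to 33.9 CPM with a median of 19.7 in marrow and from 63.7 to 87.7 CPM with a median of 79.9 in spleen. These genes have many processed pseudogenes that can share their reads. Of 26 nuclear genes of oxidative phosphorylation, 17 were higher in spleen, none past 2-fold, and 2 in marrow. Of 18 glycolysis genes, 9 were higher in marrow, 3 in spleen and 6 were not called. For both lists, mice 18 and 20 had the lowest spleen sums, 176 and 184 CPM for oxidative phosphorylation against 213 to 226 in the other 10, and 169.9 and 184.6 for glycolysis against 185.1 to 223. Slc16a3, a lactate exporter, ranged from 12.4 to 22.9 CPM with a median of 15.9 in marrow and from 0.362 to 1.68 CPM with a median of 1.02 in spleen. Hk3, a hexokinase of myeloid cells, and Slc2a3, a glucose transporter, differed by 3.76 and 2.83, while Pfkl was higher in spleen (-0.83).

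Immediate early genes, which are switched on within minutes of a stimulus, were higher in marrow for 11 of 12 members, with a median of 2.40. The lowest sums were in the spleens of mice 18 and 20, 35.9 and 36.2 CPM against 46.97 to 56.4 in the other 10 and 166 to 243 in marrows. Fos ranged from 18.7 to 30.6 CPM with a median of 25.1 in marrow and from 0 to 1.03 CPM with a median of 0.44 in spleen. Its difference was 5.54 ± 0.21 (SE, adjusted p = 1.48e-13). Dusp1, Ier2 and Ier3 differed by 3.61, 3.32 and 4.66. Of 20 interferon response genes, 7 were higher in marrow and 8 in spleen, near the 35% called in each direction over all genes tested. Oas2 and Oas3, sensors of double-stranded RNA, were higher in marrow (2.52 and 1.94), and Cxcl9 and Gbp2, targets of interferon gamma, in spleen (-3.47 and -2.17). Of 13 clock genes, 4 were higher in marrow and 8 in spleen, against the same 35%. Nfil3, also a factor of immune cells, differed by 3.10, and Bhlhe41 by -1.99.

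How evenly the 12 mice of a tissue matched depended on the gene group. Over all list genes whose counts allowed it, the highest library was a median of 2.06 times the lowest in marrow (320 genes) and 2.01 times in spleen (277 genes). In spleen the globin and membrane genes varied most, with a median of 35.7 times over 4 genes, which was 8.86 times without the spleen of mouse 20 and 5.15 times without those of mice 18 and 20. General macrophage genes varied by 3.89 times over 6 genes and red pulp genes by 3.23 times over 6 genes, and without mice 18 and 20 these were 1.68 and 1.87 times. MHC class II genes were the steadiest of these in spleen, at 1.61 times over 11 genes. In marrow the specific granule genes varied by 1.95 times over 9 genes and azurophil genes by 2.57 times over 7 genes. Ribosomal protein genes varied more in marrow, 2.83 times over 29 genes, than in spleen, 1.66 times over the same number. No test was made of these ratios.

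The 10 mice given the antibody against PAPP-A served as a repeat in other animals. Of 12292 genes tested there, 4290 were higher in marrow (34.9%) and 4259 were higher in spleen (34.6%). Of the 2039 genes past 2-fold in control mice, 1985 were tested in the treated mice, where 1983 were called in the same direction, 0 in the opposite direction and 2 were not called. Camp differed by 6.99 in treated mice and 8.11 in controls, Ccl21a by -11.05 and -9.43, and Cd3e by -3.26 and -3.17. Elane differed by 3.93 and 5.42, and Col3a1 by -7.46 and -5.28. Igfbp5 was higher in marrow in controls (0.60) and had a value of -0.52 in treated mice. Slc4a1 was -1.46 in controls and 0.23 in treated mice. The globin and membrane list did not repeat: 10 of 18 members were higher in marrow and 5 in spleen in treated mice, with a median of 0.99 against -0.43 in controls. For haem synthesis, 5 of 11 members were higher in marrow and 4 in spleen in treated mice. The median of that list was 0.29 in treated mice and -0.30 in controls. The difference between arms was not tested for any of these genes or lists.

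**Figure D5:**
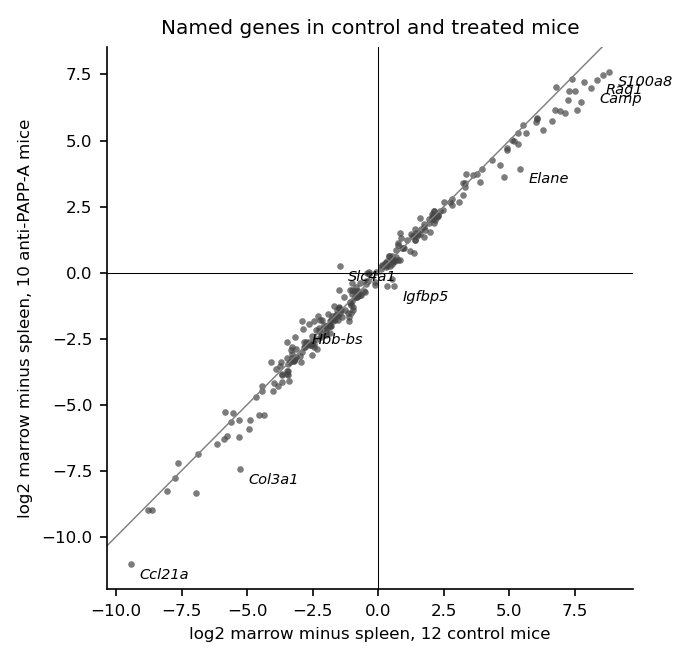
Log2 difference, marrow minus spleen, of 271 named genes in 12 control mice (horizontal axis) and in 10 mice given the antibody against PAPP-A (vertical axis), with 1 point per gene and a line of equal values. The points have the same sign in both arms for 265 of 271 genes, and Igfbp5 and Slc4a1 are among the exceptions.

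Whether the organs differed in the same way in females and males was tested with a sex by tissue term. It was called for 17 of 11986 genes (0.142%), 13 with a larger marrow minus spleen difference in males and 4 with a smaller one. At an unadjusted p under 0.05 there were 884 genes. None of the granule, lymphocyte, macrophage or stroma genes described above was called. The genes called included the small nuclear and nucleolar RNAs Rnu3b1, Snord118 and Scarna2, the mitochondrial mt-Co3 and the Y-linked Kdm5d. Kdm5d was counted in females too, which carry no Y chromosome, so its term cannot be read as a difference in that gene.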

How the data were processed

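RNA from whole marrow and spleen was made into stranded total RNA libraries (TruSeq) and sequenced on an Illumina HiSeq, per the labels' protocols. The deposited counts are whole numbers per gene, and the submitters' processing notes name FastQC 0.11.5, Salmon and the mm10 build. How the authors turned estimates into whole counts, the annotation and the strand setting were not given in the sources used here.

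Counts of 56332 features were fitted with edgeR 4.0.16 in R 4.3.3 (TMM, mouse as a block), tested by the quasi-likelihood F-test and, for a change beyond 2-fold, by glmTreat, with Benjamini-Hochberg adjustment over all genes tested. Genes with low counts were left out with filterByExpr. Its library size was set, after a first fit, to the counts outside the 9 features that hold a mean share of at least 0.9%, since the total left many genes out. CPM use the TMM-scaled total. Tissues were paired by the mouse number in the labels. Deviations of same-mouse libraries from the tissue means correlated with a median of 0.06 (range -0.16 to 0.41, over 0.1 in 5 of 12 mice), against -0.01 for different mice, and no 2 libraries were identical. The members and the 51 gene lists were chosen with earlier results of these data known. Genes named are the 12 per direction with the largest change past 2-fold (mean of at least 5 CPM, the same direction in 12 mice, an official symbol), up to 6 members with the smallest p and up to 2 against the median of each list, and a short set of anchors. Others are marked as chosen after their values were seen. Some genes that the rule names are counted in their lists but are not reported here. Where a group had 3 counts or fewer, counts were compared with exact 95% intervals, which cover counting error only. A gene with no count was set at a floor of 3 counts over the group.

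Coordinates are from GENCODE vM21 (mm10), and promoters from RefSeq (GRCm38.p6). Alternatives were DESeq2 1.42.0, limma-voom 3.58.1, other scalings and filters, no block, each sex, and leaving out mice. The fitting scripts were tested on simulated counts.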

Additional observations from a re-analysis of the deposited data

Results flagged for a closer look

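The sex by tissue term, male minus female in the marrow minus spleen difference, was called for 17 of 11986 genes by edgeR's quasi-likelihood test, and the named ones are given here as values. Several small RNAs were low in the spleens of males. Rnu3b1, a U3 small nucleolar RNA whose symbol is shared by 2 entries, had a term of 3.47 on the log2 scale, with 208 to 851 CPM in female spleens, 32.5 to 73.5 in male spleens, 301 to 537 in female marrows and 248 to 1079 in male marrows. Snord118, the U8 small nucleolar RNA, had a term of 2.73, with 1.76 to 4.22 CPM in female spleens and 0.376 to 0.981 in male spleens. Scarna2, a Cajal body RNA, had a term of 0.97, with 28.9 to 41.8 CPM in female spleens and 14.3 to 23.2 in male spleens. The unnamed transcript Gm20400 had a term of 1.37, with 8.33 to 12.7 CPM in female spleens and 2.97 to 5.40 in male spleens.

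Arsb, a lysosomal sulfatase, had a term of 3.77: female spleens held 22.0 to 95.7 CPM and male spleens 2.18 to 5.30, while marrows held 3.08 to 7.42 in females and 5.15 to 10.1 in males. The mitochondrial gene mt-Co3 had a term of 2.39, with 152 to 245 CPM in female spleens and 45.1 to 158 in male spleens. In the other direction, Gm11518 had a term of -5.86, with 0 to 2.90 CPM in female spleens and 7.71 to 15.9 in male spleens. Rps26, a ribosomal protein gene, had a term of -1.11, with 8.80 to 18.1 CPM in female spleens and 25.0 to 36.3 in male spleens. Dpp4, a peptidase of the T cell surface, had a term of -0.81, with 7.94 to 12.3 CPM in female spleens and 12.7 to 14.1 in male spleens. Kdm5d, which lies on the Y chromosome, had a term of -1.03, with 5.54 to 7.11 CPM in female marrows and 2.79 to 4.72 in female spleens, and 10.9 to 16.6 and 14.7 to 17.0 in males. Females carry no Y chromosome, so their counts are not transcripts of Kdm5d, and the term cannot be read as a difference in this gene. Mean CPM in marrow and spleen were 6.38 and 3.59 in females and 14.8 and 16.1 in males. For each of these genes but Kdm5d the marrows of the sexes overlapped.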

How the results depend on the processing

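Of 159 genes whose called difference is printed, 144 kept direction and call in every one of 29 alternatives that tested them, 15 lost the call in at least 1, and none changed direction. The uncalled Eno3 changed sign without mouse 55 (-0.19), without mice 45 and 55 (-0.23) and in females alone (-0.36), with single mice left out giving -0.19 to 0.47. With no low count filter, 3951 genes passed 2-fold against 2039, since 34961 genes were tested. The sex by tissue term was called for 31 genes by DESeq2, 295 with no low count filter, and 9 to 21 when each mouse was left out, with 9 without mouse 11 and 9 without mouse 61. The mean log2 ratio of total counts, marrow over spleen, was -0.0902 (exact permutation p = 0.284) where that of counts outside the abundant features was 0.43. Leaving out each mouse gave 8053 to 8528 genes called and 1966 to 2118 past 2-fold. With no replicate block 8538 genes were called. Collagen members higher in spleen numbered 7 under the stricter filter, which tested fewer of them. The shallowest library had 278665 counts outside the abundant features, so genes of few counts, among them most bone, Hox and organ identity genes, were below the low count filter and enter only the fit without it. The calls of Cst7 in males alone and of Col10a1 and Lpl in females alone were lost (adjusted p = 0.0709, 0.104 and 0.0811).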

Other observations

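A few cell types of the bone and its marrow fat were read from lists that the report leaves aside. Of 13 osteoclast genes 7 passed the low count filter, and Mmp9, which neutrophils also make, was the member higher in marrow. Acp5 and Nfatc1 (-0.40), a factor that lymphocytes also use, were higher in spleen. Ctsk, the osteoclast collagenase cathepsin K, was chosen after its values were seen and had 35 counts over all marrows and 46 over all spleens. Of 16 adipocyte genes 5 passed the low count filter, and Lipe (0.58) and Lpl (0.34), which split stored and circulating fat, were higher in marrow. Adipoq, the fat cell hormone adiponectin, also chosen after its values were seen, had 26 counts over all marrows and 32 over all spleens. Of 12 cartilage genes Col10a1 alone passed the low count filter, with a difference of 0.53 ± 0.16. Of 34 Hox genes Hoxb1 alone passed the low count filter, and it was not called. Alb, the liver albumin gene, was chosen after its values were seen: it had no count in any marrow and 381 over 12 spleens, at least 138-fold higher in spleen against a floor of 3 counts over the group. The summed CPM of 10 hepatocyte genes ran from 1.52 to 19.7 in spleens, as given above. Whether the Alb counts come from cells of the spleen or from liver material was not tested.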
